A study of Mus musculus with 6 samples.

Results

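The replication-dependent histone genes were followed in RNA of lymphatic endothelial cells (LECs), which form the wall of lymphatic vessels, from the dura mater of mice given a virus encoding VEGF-C or a control virus. The members were chosen by name. Every row of the deposited tables was taken whose gene name starts with Hist1h to Hist4h, or is H2ac, H2bc, H3c or H4c followed by a number, or is H1f1 to H1f6. The rule found 66 of 55401 genes, of which 6 encode linker histone H1, 19 H2A, 17 H2B, 12 H3 and 12 H4. In GENCODE M21 on GRCm38, 56 of them lie on chromosome 13 and 10 on chromosome 3, and 64 are annotated as protein coding.

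The mice were male C57BL/6J animals, wild type, injected once into the cisterna magna at 4 weeks of age with 2 µl of adeno-associated virus (AAV) of serotype 9. AAV-VEGF-C carried full-length mouse Vegfc, the growth factor of lymphatic vessels. AAV-CTRL carried a soluble part of its receptor VEGFR3 that does not bind VEGF-C, so animals of both groups carried a vector and made a secreted protein from it. Each group has 3 libraries, numbered 1 to 3 for repeats of the experiment, and each library holds cells pooled from 10 to 12 meninges and sorted as LYVE-1+, Podoplanin+, CD31+ and CD45-. The time from injection to this sort was not given in the sources used here. In the text, controls means the AAV-CTRL libraries and VEGF-C libraries means those of AAV-VEGF-C.

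Replication-dependent histone genes make the bulk of the histones that package new DNA. Their transcripts are made mainly in S phase, have no introns, and end in a conserved stem-loop bound by the protein SLBP in place of a poly(A) tail. Some members also give polyadenylated transcripts from a site further downstream, which can be found in cells that do not divide. The libraries were made from total RNA with random priming, so neither kind of transcript depends on a poly(A) tail to be counted.

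The stem-loop is shown because it is the element that sets these transcripts apart, and because where the annotation ends relative to it decides which bases were counted. It was searched as 16 bases, with a stem of 6 bases and a loop of 4 bases. The stem had to start with GG, end with CT, have only pyrimidines between these, and pair fully. The loop had to start with T, a pyrimidine and T. This stem-loop was found in the annotated transcripts of 43 members, and in 51 of 21901 protein-coding genes in all (0.233%). The form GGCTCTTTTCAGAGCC occurred in 24 members, of the H1, H2A, H2B and H3 classes. The form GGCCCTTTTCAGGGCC occurred in 6 members, and all 6 encode H4. Capitals mark the stem-loop, with up to 5 flanking bases on each side. The bases were read from the GENCODE M21 transcripts of members that hold the stem-loop, the most abundant of each class among them.
H1f2: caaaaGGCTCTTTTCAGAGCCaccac
H1f4: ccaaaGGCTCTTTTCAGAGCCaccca
H2ac19: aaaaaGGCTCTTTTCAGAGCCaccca
H2ac18: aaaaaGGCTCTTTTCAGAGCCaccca
H2ac20: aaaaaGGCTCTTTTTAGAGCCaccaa
H2bc8: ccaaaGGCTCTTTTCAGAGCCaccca
H3c6: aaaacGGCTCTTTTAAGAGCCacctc
H4c8: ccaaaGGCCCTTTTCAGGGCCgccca
H4c4: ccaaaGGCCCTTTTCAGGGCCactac
The site of H1f2 lies at chr13:23739507-23739532 on the plus strand and that of H2ac19 at chr3:96239779-96239804 on the minus strand. H4c8 and H4c4 differ from the H1 and H2A members within the stem, and H2ac20 and H3c6 differ from the commonest form in the last base of the loop. H2ac18 and H2ac19 are the same over the printed bases.

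Total counts were 6530269 to 12399498 in the controls and 564475 to 3261935 in the VEGF-C libraries, without overlap (exact permutation test, two-sided, p = 0.1, which is the lowest value possible with 3 libraries a group). In CPM, which gives a count relative to its own library's total, 1 count is thus worth 0.0806 to 0.153 in the controls and 0.307 to 1.77 CPM in the VEGF-C libraries. A set of 1653 genes of odorant, pheromone and taste receptors, keratin-associated proteins and defensins, which vessels have no known use for, received 136 to 263 CPM in the controls and 2752 to 6872 CPM in the VEGF-C libraries. At the rate of these families per kb of gene length, 0.239% to 0.592% of the histone counts in the controls would be background. In AAV-VEGF-C 1, 2 and 3 the share would be 25%, 11.9% and 3.61%. Depth, background and treatment cannot be told apart. Each of the 12 LEC markers listed, among them Prox1, Flt4 and Lyve1, had 25 or more counts in every library, while leukocyte markers, which the sort should remove, summed to 105 and 145 CPM in the libraries numbered 1 and to 2029 to 5190 CPM in the rest.

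AAV-VEGF-C 3 stood apart from the rest in histone CPM. In the controls all 66 members together took 485 CPM for number 1 (Wilson 95% limits 468 and 502), 650 for number 2 (632 and 668) and 621 for number 3 (608 and 635). In the VEGF-C libraries they took 301 CPM for number 1 (259 and 350), 330 for number 2 (302 and 361) and 832 for number 3 (801 and 863). AAV-VEGF-C 1 and 2 were therefore the lowest libraries and AAV-VEGF-C 3 the highest in CPM, and the groups overlapped. Summed TPM gave another order, with 364, 580 and 707 in the controls and 85, 145 and 544 in the VEGF-C libraries, so that AAV-VEGF-C 3 lay among the controls. The intervals cover counting error only. Group means were 585 ± 88.3 CPM (SD, n = 3) in the controls and 487 ± 298 CPM in the VEGF-C libraries, a log2 ratio of -0.26, or of -0.89 without AAV-VEGF-C 3. For summed TPM the log2 ratio was -1.09. Within experiments 1, 2 and 3, AAV-VEGF-C had 0.62, 0.508 and 1.34 times the CPM of AAV-CTRL. In bulk samples, fewer cells that make these transcripts and less of them per cell cannot be told apart.

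**Figure D1:**
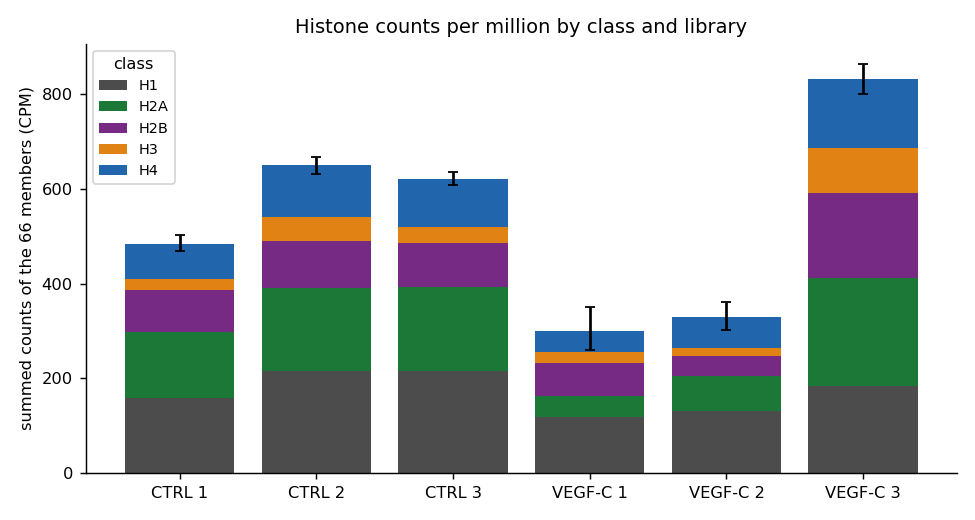
Summed counts of the 66 members in CPM of the library total (y axis) in each library (x axis), stacked by histone class, with the 95% Wilson interval of the total as a bar. AAV-VEGF-C 3 reaches 832 CPM, and AAV-VEGF-C 1 and 2 lie at 301 and 330 CPM, under every AAV-CTRL library.

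The library in which a member peaked depended on the unit. Of the 65 members with a count anywhere, 46 had their highest CPM in AAV-VEGF-C 3. In TPM 23 did, and another 23 had their highest TPM in AAV-CTRL 3, among them H1f2, H2ac19 and H4c8. In CPM, 34 of the 48 members tested were highest in AAV-VEGF-C 3 and 5 in AAV-CTRL 3, where 16.6% and 32.8% of all tested genes were. The shares of all genes were not taken in TPM, so the counts of members in TPM cannot be read as a trait of the histone genes. No member was without counts in AAV-VEGF-C 3 other than H3c14, at 0 in every library, and H2bc1, found in AAV-CTRL 1 alone. Every 100-base stretch of H3c14 also occurred in another annotated gene, so its value of 0 is uncertain. In AAV-VEGF-C 1 and 2, by contrast, 34 and 22 members had no count, in libraries where 3 counts are worth 5.31 and 2.09 CPM.

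The linker histone H1f2 (Hist1h1c, chr13:23738808-23740367) was the most abundant of the H1 class, which binds the DNA between nucleosomes. It had 38.6, 56.7 and 78.5 TPM, a level corrected for gene length and library depth, in AAV-CTRL 1, 2 and 3, and 9.82, 22.1 and 27.6 TPM in AAV-VEGF-C 1, 2 and 3. The groups did not overlap. In CPM it had 108, 143 and 151 against 69.4, 92.5 and 99.4, again with every AAV-VEGF-C library lower. Its AAV-VEGF-C over AAV-CTRL ratio in CPM was 0.643, 0.647 and 0.656 within experiments 1, 2 and 3, so AAV-VEGF-C 3 did not stand apart for H1f2. The fitted log2 fold change was -0.46 (SE 0.24), which did not pass the test (edgeR quasi-likelihood, Benjamini-Hochberg adjusted p = 0.263).

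The other H1 genes were lower in level. H1f4 (Hist1h1e) had 12.1, 15.4 and 19.7 TPM in the controls and 5.2, 4.06 and 11.1 TPM in the VEGF-C libraries, without overlap. In CPM it had 39.7, 46.5 and 46.7 against 41.0, 20.2 and 47.1, and the groups overlapped. Its log2 fold change was -0.13 (SE 0.37, adjusted p = 0.857), and its span overlaps 2 other annotated genes on the same strand, so its level is uncertain. H1f1 had 1.84 to 5.30 TPM in the controls, 0.509 and 0.367 TPM in AAV-VEGF-C 1 and 2, and 4.64 TPM in AAV-VEGF-C 3. The testis-specific H1f6 had at most 4 counts in any library.

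H2A was the class with the highest summed TPM in the controls, 228 ± 80.3, and its leading members lie in the chromosome 3 cluster. H2ac19 (Hist2h2aa2, chr3:96239749-96240276) had 52.9, 59.4 and 127 TPM in the controls and 3.93, 12.7 and 39.6 TPM in the VEGF-C libraries. H2ac18 (Hist2h2aa1) had 50.9, 59.0 and 77.5 TPM in the controls and 4.61, 12.7 and 41.1 TPM in the VEGF-C libraries. Neither overlapped between groups in TPM, and in CPM both did, with AAV-VEGF-C 3 among the controls for H2ac19 and above every control for H2ac18. H2ac18 and H2ac19 are near-identical copies: of their 100-base stretches, the read length of the study, 11.7% and 0% occurred in no other annotated gene, so the division of reads between them is uncertain. Summed, they had 105, 105 and 128 CPM in the controls and 22.9, 40.1 and 110 CPM in the VEGF-C libraries. Their log2 fold changes were -0.94 (SE 0.44, adjusted p = 0.210) for H2ac19 and -0.69 (SE 0.45, adjusted p = 0.359) for H2ac18. With the replicate number added to the edgeR fit as a block, they were -1.09 (adjusted p = 0.070) and -0.82 (adjusted p = 0.221).

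H2ac20, from the same cluster, had 11.5, 18.4 and 28.1 TPM in the controls and 1.42, 6.67 and 15.4 TPM in the VEGF-C libraries. Its groups overlapped and its log2 fold change was -0.14 (SE 0.45, adjusted p = 0.881). Of its 100-base stretches 93.1% occurred in no other gene. In TPM, the means over the 6 libraries ran from 49.2 for H2ac19 and 40.9 for H2ac18 to 13.6 for H2ac20, and the first pair did not differ beyond its spread.

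Among H2B genes, H2bc4 (Hist1h2bc) led with 33.1, 26.8 and 46.3 TPM in the controls and 8.92, 7.92 and 26.3 TPM in the VEGF-C libraries. The AAV-VEGF-C 3 value came within a small margin of the lowest control, and the log2 fold change was -0.26 (SE 0.39, adjusted p = 0.713). Its annotated transcripts are spliced and hold no stem-loop. H2bc18 had 6.93 to 14.3 TPM in the controls and 3.10 to 8.77 TPM in the VEGF-C libraries. H2bc15 had 3.16 to 9.84 TPM in the controls, 4.62 and 0 TPM in AAV-VEGF-C 1 and 2, and 17.7 TPM in AAV-VEGF-C 3. Neither of these passed the test (log2 fold changes 0.59 and 1.54, SE 0.70 and 1.06, adjusted p = 0.626 and 0.384).

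H3 genes, whose proteins carry many of the chromatin marks, were the lowest class, with a summed 39.8 ± 17 TPM in the controls. H3c13 had 2.66, 12.0 and 9.47 TPM in the controls, no count in AAV-VEGF-C 1 and 2, and 19.965 TPM in AAV-VEGF-C 3. It had no count in some and its highest TPM in another library of the same group. Its log2 fold change of 0.82 (SE 1.18, adjusted p = 0.699) describes neither. Only 22.9% of its 100-base stretches occurred in no other annotated gene, so its level in each library is uncertain. H3c11 had 2.32 to 9.49 TPM in the controls and 3.03 to 6.93 TPM in the VEGF-C libraries (log2 fold change 0.94, SE 0.68, adjusted p = 0.412). H3c6 had 3.31, 7.95 and 6.97 TPM against 1.49, 2.14 and 3.35 TPM, with 1 VEGF-C library just above the lowest control (log2 fold change -0.26, SE 0.51, adjusted p = 0.784).

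For H4, which pairs with H3 at the centre of the nucleosome, 3 members reached similar levels. H4c8 had 13.9, 20.4 and 31.6 TPM in the controls and 1.08, 8.54 and 21.6 TPM in the VEGF-C libraries. H4c4 had 13.8, 22.1 and 29.2 TPM in the controls and 2.70, 6.24 and 15.3 TPM in the VEGF-C libraries. H4c12 had 10.1, 18.2 and 17.9 TPM in the controls and 3.65, 5.63 and 21.1 TPM in the VEGF-C libraries. For all 3 in TPM, AAV-VEGF-C 1 and 2 lay under every control and AAV-VEGF-C 3 among or above them. In CPM this did not hold for H4c12, with 4.95, 7.54 and 4.41 in the controls and 5.51 and 4.68 in AAV-VEGF-C 1 and 2. Their log2 fold changes were 0.06 (SE 0.55), -0.44 (SE 0.37) and 0.76 (SE 0.54), with adjusted p = 0.964, 0.479 and 0.400, and their mean levels of 16.2, 14.9 and 12.8 TPM did not differ beyond the spread between libraries.

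**Figure D2:**
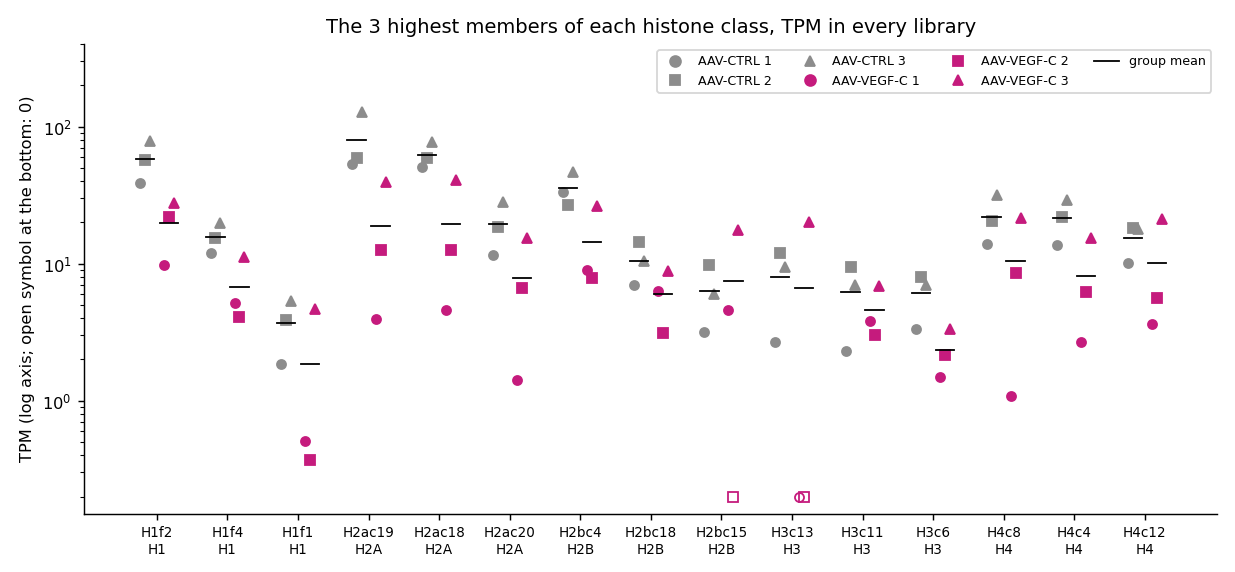
TPM on a log axis (y axis) of the 3 members of each histone class with the highest mean TPM (x axis), in every library; grey is AAV-CTRL, magenta is AAV-VEGF-C, the symbol gives the replicate number, short lines are group means, and open symbols at the bottom stand for 0. The triangle of AAV-VEGF-C 3 lies above the other AAV-VEGF-C libraries in all 15, and for H1f2, H1f4, H2ac18, H2ac19 and H2bc4 it still lies under every AAV-CTRL library.

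The comparison of AAV-VEGF-C with AAV-CTRL called no member. Of the 48 members that passed the filter on low counts, 0 were higher and 0 lower at an adjusted p under 0.05 (edgeR quasi-likelihood), and 0 had an unadjusted p under 0.05. Of the 17459 genes tested, 10.5% were called higher and 0.659% lower, and 28.1% had an unadjusted p under 0.05. DESeq2 called 1 member higher and 0 lower, H3c8, with 0, 2.87 and 5.77 estimated counts in the controls and 1.19, 4.75 and 15 in the VEGF-C libraries, where 18% and 1.53% of its genes were called, and 2 members had an unadjusted p under 0.05 there, beside 34.5% of genes. Without the filter edgeR called 3 members higher (H2ac1, H2bc14 and H3c8) and 1 lower (H2ac19), beside 21.1% and 2.64% of genes. In those fits the median log2 fold change over all genes tested was 2.29 in DESeq2 and 1.88 without the filter, over 44563 genes. The standard errors of the 48 members ran from 0.24 to 1.43 on the log2 scale.

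The 48 tested members had a median log2 fold change of 0.27, beside -0.0037 over all tested genes. With the replicate number as a block the median turned to -0.07, beside -0.02 over all tested genes, with 22 members above 0 and 26 below. Without the block, above 0 lay 33 and below 0 lay 15, beside 50.2% of all tested genes below 0. The largest positive value was that of Hist1h2bq, 2.47 (SE 1.12, adjusted p = 0.196), which had at most 12.5 counts in any library, and of whose 100-base stretches only 5.16% were its own. Hist1h2bq had 0, 1.59 and 0.386 CPM in the controls and 4.91, 2.29 and 3.41 CPM in the VEGF-C libraries. It thus passed the filter on low counts through the VEGF-C libraries alone, so its positive value is no separate result. H2bc3 followed with 1.85 (SE 1.01, adjusted p = 0.274), from 0.406, 4.78 and 5.08 TPM in the controls and 0, 3.21 and 13.4 TPM in the VEGF-C libraries. Other members above 0, among them H2bc15, H2bc7, H4c6 and H2ac12, passed the filter only with VEGF-C libraries counted. The count of 33 above 0 is thus no separate result either. The median turned negative without AAV-VEGF-C 3, to -0.87 over 55 members tested then. Of these 0 were called by edgeR and 8 had an unadjusted p under 0.05, where 1.73% of genes were called higher, 0.0431% lower and 24.5% had such a p. Without that library 37 of the 48 members had a log2 fold change under 0.

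In CPM, 1 tested member lay lower in every AAV-VEGF-C library (H1f2) and 1 higher (Hist1h2bq), where 19.1% and 20.6% of tested genes did so. Hist1h2bq had passed the filter through the VEGF-C libraries alone. In TPM, 9 lay lower and 0 higher, beside 36.4% and 12.8% of tested genes. TPM shifts all genes: the median over tested genes was -0.72 on the log2(TPM + 1) scale and that of the members -0.90. Those 9 members were H1f2, H1f4, H2ac18, H2ac19, H2bc4, H2bc8, H4c1, H4c3 and Hist1h4n. The shares of members without overlap were thus under those of all tested genes in either unit.

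**Figure D3:**
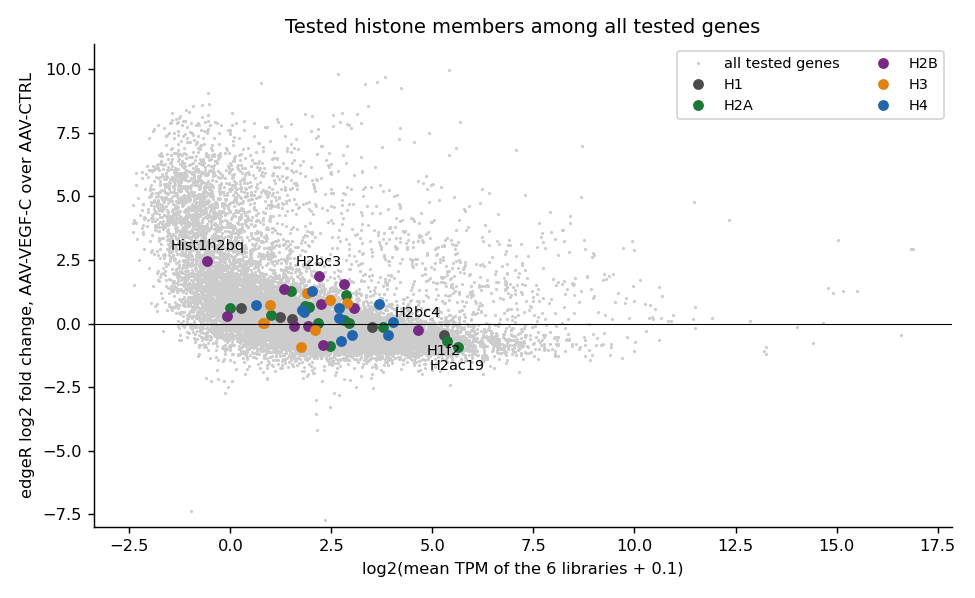
The edgeR log2 fold change of AAV-VEGF-C over AAV-CTRL (y axis) against log2 of the mean TPM of the 6 libraries plus 0.1 (x axis) for all 17459 tested genes (grey) and the 48 tested members (coloured by class). Members of low level lie mostly above 0, up to 2.47 for Hist1h2bq, and those of the highest level, such as H1f2 at -0.46 and H2ac19 at -0.94, lie under it. Hist1h2bq passed the filter on low counts through the VEGF-C libraries alone. Other members above 0, among them H2bc15, H2bc7, H4c6 and H2ac12, passed it only with VEGF-C libraries counted. The side on which members of low level lie is thus no separate result.

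Members of high and of low level stood at different distances from the controls in AAV-VEGF-C 3, which was not tested. The 15 leading members, 3 a class, summed to 370, 445 and 472 CPM in the controls and 222, 225 and 468 CPM in the VEGF-C libraries. The other 51 summed to 114, 205 and 149 CPM in the controls and 78.2, 106 and 364 CPM in the VEGF-C libraries. In AAV-VEGF-C 3 the leading members were at 0.99 and the others at 2.44 times AAV-CTRL 3. The leading 15 made up 68.0% to 76.4% of histone counts in the other 5 libraries and 56.2% in AAV-VEGF-C 3. The 15 were chosen by their mean over all libraries, so their share of the total is no separate result.

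Examples of the others are H2bc14, with 3.40, 16.7 and 6.05 counts in the controls and 0, 0 and 46.3 in the VEGF-C libraries, and H3c2, with 14.5, 36.3 and 25.3 against 1.30, 0 and 51.1. Both were named after their values were seen. AAV-VEGF-C 3 alone held most of their AAV-VEGF-C counts. Log2 fold changes had a median of -0.13 over the 15 leading members (8 below 0) and of 0.45 over the 33 others tested (7 below 0). Several of these others, among them H2bc7, H4c6 and H2ac12, passed the filter on low counts only with VEGF-C libraries counted. The median of 0.45 is thus no separate result. Among tested genes, those at a mean of 5 TPM or more had a median of -0.41. Without AAV-VEGF-C 3, the medians were -0.68 and -0.99.

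The classes took unequal shares of histone counts, given here without a test. H1 took 32.5% to 34.5% of them in the controls, 39.5% and 39.7% in AAV-VEGF-C 1 and 2, and 22.0% in AAV-VEGF-C 3. H3 took 5.12% to 7.77% in the controls, 7.66% and 4.93% in AAV-VEGF-C 1 and 2, and 11.3% in AAV-VEGF-C 3. H4 stayed between 15.3% and 20.3% in all 6. The summed classes had fitted log2 fold changes of -0.28 (SE 0.26) for H1, -0.41 (SE 0.49) for H2A, 0.18 (SE 0.46) for H2B, 0.43 (SE 0.60) for H3 and -0.02 (SE 0.37) for H4.

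By cluster, the 10 members on chromosome 3 took 28.3%, 23.7% and 27.3% of histone counts in the controls and 15.3%, 20.8% and 22.9% in the VEGF-C libraries. Every AAV-VEGF-C library thus had the smaller share, and the 56 members on chromosome 13 the larger. The lower share was that of H2ac18 and H2ac19, with 21.6%, 16.2% and 20.5% of histone counts in the controls and 7.63%, 12.1% and 13.2% in the VEGF-C libraries. The other 8 members on chromosome 3 took 6.69% to 7.53% in the controls and 7.69% to 9.67% in the VEGF-C libraries, a larger share in each. The count of H2ac18 and H2ac19 in AAV-VEGF-C 1 was only 12.95, and no p is given because these sums were formed over members.

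Head-to-head pairs show how unequal neighbouring members were. In 13 places an H2A and an H2B gene start on opposite strands 175 to 305 bases apart, so that they share the sequence between them. Their mean TPM over the 6 libraries differed by 1.10-fold, for H2ac15 and H2bc15, up to 27.7-fold, for H2ac6 and H2bc4. H2ac6 had 0.648, 0.946 and 1.40 TPM in the controls and 0, 0.430 and 1.96 TPM in the VEGF-C libraries, far under the H2bc4 values given above. H2ac20 likewise exceeded its partner H2bc21, at 0.57 to 1.44 TPM in the controls and 0 to 1.49 TPM in the VEGF-C libraries, by 16.1-fold. TPM divides by the annotated length, which is 2482 bases for H2ac6 and 1156 for H2bc4, and 520 for H2ac20 and 2620 for H2bc21. In mean CPM the pairs differed by 11.6-fold and 3.36-fold.

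The sequence between H2ac6 and H2bc4 is shown for that reason, with the H1f2 promoter as that of the leading H1 gene. Both are from RefSeq (GRCm38.p6), 250 bases before to 50 after the gene start, at chr13:23683910-23684209 on the minus strand for H2ac6 and chr13:23738557-23738856 on the plus strand for H1f2. Capitals mark matches on either strand. The motif of the TATA box was searched as TATAAA. That of the CCAAT box was searched by the letters of its name. The octamer was searched as ATTTGCAT.
H2ac6: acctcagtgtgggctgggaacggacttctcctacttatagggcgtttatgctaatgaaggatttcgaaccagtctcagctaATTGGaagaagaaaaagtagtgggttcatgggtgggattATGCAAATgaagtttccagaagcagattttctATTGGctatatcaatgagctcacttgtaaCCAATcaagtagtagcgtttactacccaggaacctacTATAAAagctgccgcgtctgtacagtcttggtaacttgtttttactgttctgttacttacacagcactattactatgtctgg
H1f2: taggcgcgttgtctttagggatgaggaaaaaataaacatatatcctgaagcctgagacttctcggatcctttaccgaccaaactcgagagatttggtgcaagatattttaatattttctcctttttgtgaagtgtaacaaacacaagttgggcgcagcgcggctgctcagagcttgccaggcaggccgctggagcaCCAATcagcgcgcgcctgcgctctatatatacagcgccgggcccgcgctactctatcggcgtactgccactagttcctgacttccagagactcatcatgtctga
The H2ac6 window holds TATAAA at 1 place, CCAAT at 3 and the octamer at 1, and the H1f2 window CCAAT at 1. A promoter was matched for 59 members. TATAAA was in 57.6% of them and in 13.6% of all 32851 promoters, and CCAAT in 86.4% against 37.4%. The octamer was in 6 of 17 H2A and 6 of 15 H2B promoters and in none of the H1, H3 and H4 promoters, against 1.74% of all. CCAAT was in all 48 matched promoters other than those of H4, where 3 of 11 held it. Paired genes share much of this window, so the counts are not independent.

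How far the annotation runs past the stem-loop differed between members. In 20 members at least 100 bases were annotated after it, among them 840 for H1f2, 1153 for H1f4 and 770 for H4c4, and in 23 members it ended within 100 bases, as with 35 for H2ac18 and H2ac19. A further 23 had no stem-loop in the annotated transcript, 15 of these with an exonic length of at most 420 bases. The members with 100 bases or more took 48.7%, 49.2% and 52.6% of histone counts in the controls and 53.6%, 60.5% and 38.3% in the VEGF-C libraries. They took 236, 320 and 327 CPM in the controls and 161, 200 and 319 CPM in the VEGF-C libraries. Their share was lowest in AAV-VEGF-C 3, the library in which the members without such an extension were highest. The tables give whole genes, so reads after the stem-loop were not counted apart.

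Near-identical copies limit the values of single members. For 26 members under 50% of the 100-base stretches of their transcripts occurred in no other annotated gene. These 26 summed to 149, 199 and 181 CPM in the controls and 63.8, 70.7 and 290 CPM in the VEGF-C libraries. The 40 more distinct members summed to 336, 451 and 441 CPM in the controls and 237, 260 and 542 CPM in the VEGF-C libraries. AAV-VEGF-C 3 was the highest library in both sets in CPM, and in TPM AAV-CTRL 3 was, with 334 against 252 for the 26 and 373 against 292 for the 40.

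The germ-line members were near the limit of detection. H2ac1 (Hist1h2aa) had 0 counts in every AAV-CTRL library and 0, 1 and 9 in the VEGF-C libraries, and H2bc1 (Hist1h2ba) had 8.34 counts in AAV-CTRL 1 and 0 elsewhere. A count of 0 in the controls allows up to 0.242 to 0.459 CPM. In all, 5 members had under 10 counts in every library.

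Most replication-independent histones are made outside S phase too, from polyadenylated transcripts. H2ax, which also gives a stem-loop transcript, and Cenpa, the centromeric H3, are listed with them although their expression follows the cell cycle. The 11 genes summed to 490, 669 and 797 CPM in the controls and to 186, 485 and 454 CPM in the VEGF-C libraries. As a sum, AAV-VEGF-C 3 was thus under every control. Among single genes, only H3f3a, H2az1, Macroh2a1 and H1f0 lay under every control in AAV-VEGF-C 3. H2ax alone lay above every control there, at 14.0 to 15.6 CPM in the controls, 7.32 and 11.9 in AAV-VEGF-C 1 and 2, and 26.8 CPM in AAV-VEGF-C 3. Its log2 fold change was 0.23 (adjusted p = 0.762). None of the 11 passed the edgeR test in either direction (adjusted p), and the median log2 fold change was -0.66, beside -0.68 for 16 housekeeping genes. H3f3b, which encodes the variant H3.3, had 113, 208 and 243 TPM in the controls and 18.8, 98.9 and 90.9 TPM in the VEGF-C libraries, more than any replication-dependent H3 gene. Its log2 fold change was -0.66 (SE 0.41, adjusted p = 0.330), and that of the linker variant H1f0 -0.81 (SE 0.31, adjusted p = 0.139).

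Genes that act on histone transcripts and on S phase were read from lists. Of 20 genes of histone mRNA transcription, processing and decay, 1 was called higher and 0 lower by edgeR, where 10.5% and 0.659% of all tested genes were. It was Zfp473, whose product ZFP100 acts in 3' processing (log2 fold change 2.75, adjusted p = 0.0297). Zfp473 had 4, 11 and 31 counts in the controls and 6, 11 and 30 in the VEGF-C libraries, and its groups overlapped in TPM. In CPM it had 0.613, 1.40 and 2.50 in the controls and 10.6, 7.67 and 9.20 in the VEGF-C libraries. Zfp473 passed the filter on low counts only with the VEGF-C libraries counted, so its call is no separate result. Slbp, the stem-loop binding protein, had 14.1, 16.1 and 28.4 TPM in the controls and 2.49, 8.33 and 8.41 TPM in the VEGF-C libraries, and Npat, the coactivator of histone genes, 1.66 to 3.41 TPM and 0.725 to 0.795 TPM. Neither passed the test (adjusted p = 0.491 and 0.359). Of 19 histone chaperone genes tested, 1 was called higher (Chaf1b, a subunit of chromatin assembly factor 1, log2 fold change 3.34, adjusted p = 0.0221) and 0 lower. Chaf1b had 3, 12 and 9 counts in the controls and 5, 12 and 26.6 in the VEGF-C libraries. In CPM it had 0.459, 1.53 and 0.726 in the controls and 8.86, 8.36 and 8.14 in the VEGF-C libraries. Chaf1b passed the filter on low counts through the VEGF-C libraries alone, so its call is no separate result. Neither Zfp473 nor Chaf1b was called with counts drawn down or with the background subtracted.

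Of 22 S phase genes tested, 0 rose and 1 fell, beside 10.5% and 0.659% of all tested genes. It was Pcna, the sliding clamp of DNA polymerase, with 15.9, 22.4 and 41.8 TPM in the controls and 1.32, 7.09 and 5.70 TPM in the VEGF-C libraries (log2 fold change -1.43, adjusted p = 0.0326). Mcm2, Mcm3, Mcm4, Mcm5, Mcm6 and Mcm7, the replicative helicase, ran from -1.09 to 0.43 in log2 fold change, and Rrm2 was at 0.62. The 25 listed genes summed to 199, 293 and 287 CPM in the controls and 270, 256 and 303 CPM in the VEGF-C libraries. E2f1, a transcription factor of S phase entry, made up 127 of the 270 CPM in AAV-VEGF-C 1. Its log2 fold change was 2.87 (adjusted p = 0.0748). Without it, a choice made after its values were seen, the 24 others summed to 191, 279 and 281 CPM in the controls and 143, 220 and 287 CPM in the VEGF-C libraries. AAV-VEGF-C 1 was then the lowest and AAV-VEGF-C 3 the highest, the latter close to AAV-CTRL 2 and 3.

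Only 7 of the 12 G2 and M phase genes listed passed the filter on low counts. Of these, 1 rose (Plk1, a mitotic kinase, log2 fold change 2.29, adjusted p = 0.0452) and 0 fell, beside 10.5% and 0.659% of all tested genes. All 7 had a log2 fold change above 0, with a median of 1.18, or of 1.25 without AAV-VEGF-C 3. Over all tested genes 50.2% lay below 0. Among those that did not pass, Aurkb, a mitotic kinase, was at 2.22 (adjusted p = 0.122), Kif11, a spindle motor, at 2.14 (adjusted p = 0.0648) and Cenpe, a kinetochore motor, at 1.18 (adjusted p = 0.138). The 12 listed genes summed to 47.9, 91.1 and 47.9 CPM in the controls and 70.9, 97.1 and 111 CPM in the VEGF-C libraries. Mki67, a marker of cycling cells, had 1.41, 3.58 and 2.10 TPM in the controls and 0.67, 1.61 and 2.06 TPM in the VEGF-C libraries, and Top2a had 2.01 to 2.99 and 1.79 to 4.85 TPM. Neither passed the test (adjusted p = 0.829 and 0.601). Of 10 genes tested of other RNAs that lack a poly(A) tail, 0 passed the test in either direction, with a median log2 fold change of 0.44. With replicate number as a block, 0 members were called and 2 had an unadjusted p under 0.05, where 12.8% of genes were called higher, 2.07% lower and 31.8% had such a p, while the calls over all lists moved from 4 higher and 3 lower to 6 higher and 11 lower of 145 tested.

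Marrow progenitor markers, like the histone members in CPM, were highest in AAV-VEGF-C 3. The 12 marrow progenitor markers summed to 2.91, 41.9 and 20.6 CPM in the controls and 15.9, 14.6 and 107 CPM in the VEGF-C libraries. Only 4 of these 12 passed the filter on low counts, of which 1 was called higher and 0 lower, beside 10.5% and 0.659% of all tested genes. Their median log2 fold change was 0.91, and that of the list was -2.69 without AAV-VEGF-C 3. The 10 erythroid markers summed to 24.0, 152 and 154 CPM in the controls and 21.3, 36.2 and 164 CPM in the VEGF-C libraries. AAV-VEGF-C 3 stood apart for the marrow list, and for the erythroid list it lay close to AAV-CTRL 2 and 3. For the leukocyte list it was, at 2029 CPM, under AAV-CTRL 2 and 3 and AAV-VEGF-C 2. Ngp and Camp, granule genes of developing neutrophils, had 142 and 50 counts there and at most 110 and 13 elsewhere, while Vpreb3 was at 0 in every library. Of the 8 fibroblast markers 2 fell (Dcn and Ogn, log2 fold changes -1.69 and -1.85), beside 0.659% of all tested genes. The fibroblast list summed to 9649 to 22672 CPM in the controls and 6157 to 11516 CPM in the VEGF-C libraries. The part of other cells in the histone counts was not tested.

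**Figure D4:**
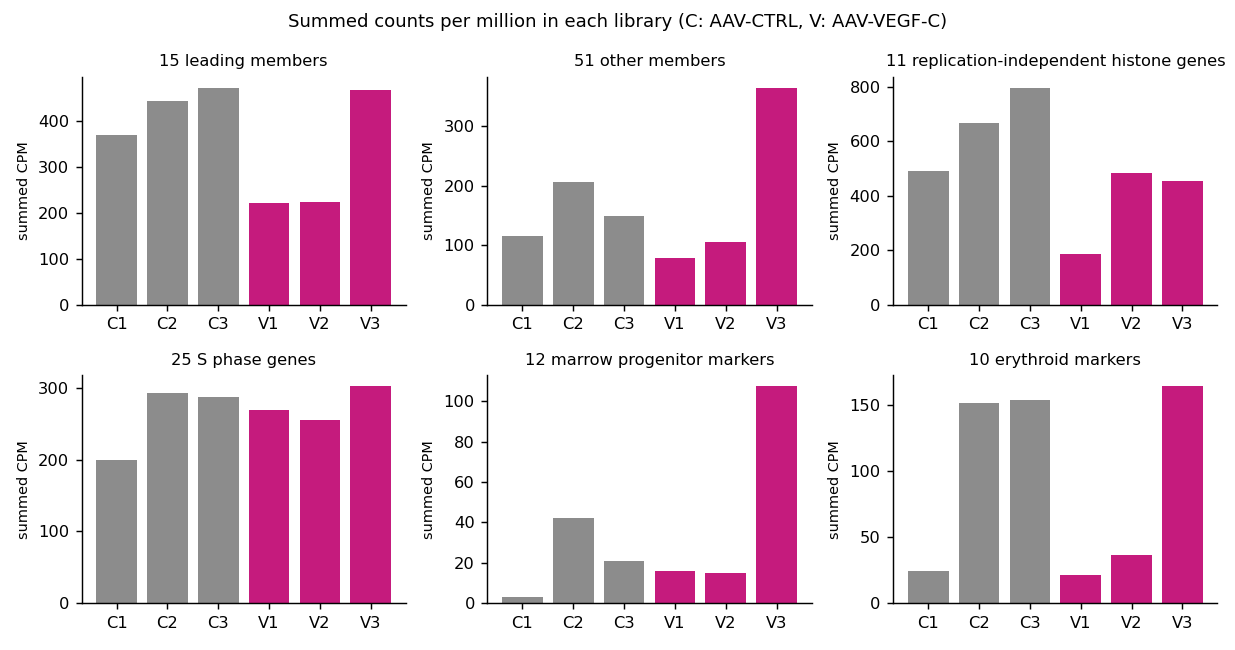
Summed CPM (y axes, each from 0 and with its own scale) in each library (x axes; C is AAV-CTRL and V is AAV-VEGF-C) for the 15 leading and the 51 other members and for 4 lists. The last bar, AAV-VEGF-C 3, is the highest for the 51 other members at 364 CPM and for marrow progenitor markers at 107 CPM. It is also the highest, by a small margin, for S phase genes at 303 CPM and for erythroid markers at 164 CPM. It is not the highest for the 15 leading members or for replication-independent histones.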

How the data were processed

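RNA was sequenced from dural LECs in 6 libraries (stranded total RNA, low input, 100-base paired reads). The authors deposited 2 tables, of estimated counts without scaling and of TPM. Per the submitters' processing notes, FastQC, Trimmomatic, DRAGEN and Picard were used with mm10; versions, and strand or molecular identifiers in counting, are not given in the sources used here. Identifiers equalled those of GENCODE M21 for 98.1% of genes with version.

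Groups came from the labels. Counts were rounded, filtered by filterByExpr, scaled by TMM and tested by the quasi-likelihood test of edgeR 4.0.16 (R 4.3.3) with Benjamini-Hochberg adjustment at 0.05 over all genes. The study used DESeq2, run as an alternative (1.42.0), as was limma (3.58.1). P-values measure the spread between pooled libraries. Named members are the 3 of each class with the highest mean TPM, germ-line members and any called. The members and lists were chosen with earlier results of these data known. Scripts were tested on simulated data. Depth limits low members in AAV-VEGF-C most.

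The sample titles tie replicate numbers to repeats of the experiment. After the group mean was taken off each gene, libraries 1, 2 and 3 correlated with their counterparts at 0.37, 0.28 and 0.15 across genes. AAV-CTRL 3 correlated more with AAV-VEGF-C 2 (0.22) than with its own counterpart. The numbers were taken to pair the libraries because the titles name a shared experiment. Libraries of the same group all differed by more than counting noise.

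Alternatives covered scaling, filters, the test, pseudocounts of 1 and 0.1, depth, background, the block and leaving out each library. Scaling of the summed CPM by TMM, the separate sums of leading and other members with their alternatives, and the S phase sum without E2f1 were added after the data were seen.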

Additional observations from a re-analysis of the deposited data

How the results depend on the processing

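No members were called under any of the alternatives run other than no filter, with 3 higher and 1 lower (H2ac19, log2 fold change -1.17, adjusted p = 0.0390), and DESeq2, with 1 higher. The cause was not tested. The median of members was -0.90 and -1.63 in limma on log2(TPM + 1) and log2(TPM + 0.1), where all tested genes shifted to -0.72 and -1.04, and -0.87 to 0.53 when each library was left out, lowest without AAV-VEGF-C 3. With the replicate block it was -0.07, with 0 calls. The log2 ratio of summed CPM was -0.26, -1.09 for summed TPM and -0.89 to -0.011 when each library was left out.

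Over the lists, calls higher (4) became 14 without the filter, 9 in DESeq2, 1 in limma at either pseudocount and 0 with the TPM filter, drawn-down counts or background subtracted. Calls lower (3) became 22 without the filter, 14 in DESeq2, 6 in limma on log2(TPM + 1), 11 with the replicate block and 0 with scaling on abundant genes, the TPM filter, drawn-down counts or background subtracted. Leaving out each library gave 0 to 2 in either direction.

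Log2 fold changes of 17 named members kept their side in 244 of 290 values and turned in 45. The members that turned were as follows, none past the test. With scaling on the 2000 most abundant genes, which moved the median of all genes to 0.33, these were H1f4 0.26, H2ac20 0.19, H2bc4 0.12, H3c6 0.095. With a filter on mean TPM these were H1f4 0.25, H2ac20 0.18, H2bc4 0.12. With counts drawn down to the smallest total these were H1f4 0.23, H2bc4 0.23. With the background subtracted these were H1f4 0.23, H2ac20 0.16, H2bc4 0.097. Without the filter these were H1f1 -0.085, H4c8 -0.16. In limma on log2(TPM + 1) these were H1f1 -0.97, H2bc18 -0.75, H2bc15 -0.53, H3c13 -1.52, H3c11 -0.28, H4c8 -1.51, H4c12 -0.85. In limma on log2(TPM + 0.1) these were H1f1 -1.65, H2bc18 -0.85, H2bc15 -1.52, H3c13 -3.54, H3c11 -0.31, H4c8 -1.79, H4c12 -0.96, H2bc3 -0.51. With the replicate block these were H1f1 -0.20, H3c13 -0.22, H4c8 -0.14. In voom with sample weights these were H2ac20 0.086, H3c13 -0.20. In DESeq2 these were H4c8 -0.047. When each library was left out, ranges crossing 0 were H1f1 -1.61 to 0.52, H1f4 -0.42 to 0.066, H2ac20 -0.87 to 0.035, H3c13 -8.02 to 1.37, H3c6 -0.50 to 0.071, H4c12 -0.041 to 0.99, H4c8 -0.87 to 0.33. Depth in the VEGF-C libraries limits members of few counts most, and the direction of the low members rests on AAV-VEGF-C 3.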
